A study of Mus musculus with 36 samples.

Results

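The genes described here are the mouse genes whose symbol is Zfp followed by a number, the symbol given to many zinc-finger proteins. They were found on the arrays as rows with exactly 1 annotated symbol of that form, with the row of highest mean kept where a gene had several. They were chosen by their level: a gene was kept if its log2 intensity lay above 5.26, the median of all values in the table, in at least 3 of the 36 samples. This kept 292 of 370 Zfp genes, where 13082 of all 22180 genes with a symbol passed the same threshold. The choice used the level alone, so levels are given below as a description.

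The study profiled CD4 T cells of TRIM28KO mice (KO) and of their wild-type littermates (WT) on expression arrays. In each genotype, flow-sorted naive cells were compared with cells activated for 72 h by plate-bound anti-CD3 and soluble anti-CD28 in conditions called Th0, Th1, Th2, Th17 and Treg. The 12 groups, WT and KO in each of the 6 conditions, held 3 samples each. The labels give neither the allele or Cre line, nor the cytokines, nor the age or sex of the mice, and nothing in them states that the 3 samples were different animals. The p-values therefore measure the spread between samples.

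Zinc-finger proteins of the C2H2 type bind DNA through a string of zinc-holding fingers, each of which reads a few bases. Many of them carry a KRAB domain, which binds TRIM28 (also called KAP1), and TRIM28 in turn brings the histone methyltransferase SETDB1 and HP1 proteins to the DNA. These genes arose largely by tandem duplication and lie in clusters, and TRIM28 and H3K9me3 are known to be found over the 3' ends of many of them. Other proteins with a Zfp symbol work differently, as the CCCH proteins of the Zfp36 family do, which bind AU-rich mRNA and hasten its decay.

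Trim28 checked the labels. WT samples held it at log2 levels of 9.21 to 9.99, naive KO samples at 7.20 to 7.86, and KO samples after stimulation at 5.51 to 6.58. Of 9 CD4 T cell markers, 8 were measured, at levels between 8.27 and 12.6, while 3 of 5 measured B cell markers (Cd79a, Ms4a1, Blnk) and 3 of 6 myeloid markers (Lyz2, Csf1r, Cd14) failed the level threshold. The other B cell markers reached 6.26 (Cd79b) and 5.47 (Pax5), and the other myeloid markers 10.4 (Cst3), 10.3 (Adgre1) and 7.87 (Itgam). All 4 CD8 and cytotoxic markers passed the threshold: Cd8b1 lay between 6.18 and 8.84, Cd8a between 4.32 and 6.50, Klrk1 between 3.16 and 6.72 and Nkg7 between 5.90 and 11.7. The 2 NK markers measured (Ncr1, Klrb1c) failed it. Correlations between the samples of a group averaged 0.974 to 0.984 over the 292 genes. Naive KO samples 1 and 2 and naive WT sample 1 had Xist above a log2 level of 8, as female mice do, and the other naive samples and all stimulated samples did not. Comparisons of naive with stimulated cells therefore also differ in Xist. With a term for sex the members called in WT Th0 against naive cells numbered 98 higher and 53 lower. Without it they numbered 85 and 62 of the 292, where 31.2% and 22.3% of all genes tested were called. The counts with the term for sex are not set against all genes here. In bulk samples, fewer cells of a type and less RNA per cell cannot be told apart.

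The promoters of 5 genes that the results turn on are shown first, as 250 bases before the RefSeq start of transcription (GRCm38.p6), 5' to 3' on the gene's strand. Zfp53, Zfp948 and Zfp983 are neighbours that were higher in KO cells, Zfp445 was higher in every stimulated KO condition, and Zfp367 was the member that fell most in KO Th0 cells. Capitals mark a CCAAT box, a GC box (GGGCGG) or the core of a site bound by transcription factors of the ETS family (CCGGAAG), on either strand.
Zfp53, chr17:21488738-21488987, plus strand: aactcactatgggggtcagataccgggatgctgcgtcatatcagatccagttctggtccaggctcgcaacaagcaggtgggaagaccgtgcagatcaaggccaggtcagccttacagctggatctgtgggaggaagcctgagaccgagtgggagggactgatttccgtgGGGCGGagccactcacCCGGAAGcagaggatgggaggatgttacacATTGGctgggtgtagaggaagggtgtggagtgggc
Zfp948, chr17:21566728-21566977, plus strand: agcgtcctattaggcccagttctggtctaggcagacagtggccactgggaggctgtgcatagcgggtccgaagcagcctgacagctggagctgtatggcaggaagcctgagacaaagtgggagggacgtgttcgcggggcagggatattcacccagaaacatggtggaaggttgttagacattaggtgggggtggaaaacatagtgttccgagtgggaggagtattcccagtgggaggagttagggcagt
Zfp983, chr17:21650361-21650610, plus strand: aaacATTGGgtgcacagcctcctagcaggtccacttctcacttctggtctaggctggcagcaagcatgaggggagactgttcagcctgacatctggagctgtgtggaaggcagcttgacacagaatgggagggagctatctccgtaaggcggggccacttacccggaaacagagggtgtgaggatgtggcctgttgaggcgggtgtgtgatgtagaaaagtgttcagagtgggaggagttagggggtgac
Zfp445, chr9:122866007-122866256, minus strand: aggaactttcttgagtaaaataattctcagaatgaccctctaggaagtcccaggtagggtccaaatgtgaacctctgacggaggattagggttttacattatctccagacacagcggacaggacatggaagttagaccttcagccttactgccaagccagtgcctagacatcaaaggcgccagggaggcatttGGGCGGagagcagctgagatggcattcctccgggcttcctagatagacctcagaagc
Zfp367, chr13:64153200-64153449, minus strand: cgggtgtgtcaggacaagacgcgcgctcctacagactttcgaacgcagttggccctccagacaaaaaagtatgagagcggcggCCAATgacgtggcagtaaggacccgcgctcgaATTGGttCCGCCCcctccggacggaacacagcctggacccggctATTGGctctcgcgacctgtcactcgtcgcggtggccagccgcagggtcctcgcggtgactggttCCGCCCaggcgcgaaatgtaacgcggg

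In these windows 63.7% of bases matched between Zfp53 and Zfp983, 59.6% between Zfp948 and Zfp983 and 58.8% between Zfp53 and Zfp948, against a median of 49.2% and a maximum of 62.0% over 5781 pairs of members on different chromosomes and a median of 49.7% over 105 pairs within the cluster. Likeness was not limited to the raised genes: Zfp54, which was not called, matched Zfp53 at 61.1%, and the closest pairs of the cluster were Zfp943 with Zfp758 (93.8%) and Zfp942 with Zfp944 (81.5%). Their marked boxes differed, with 1 of each kind in Zfp53, 1 CCAAT box in Zfp983 and none in Zfp948. Over the 293 promoters of the 243 members that had one, the ETS core was present in 16.7%, against 6.91% of all 32851 promoters. It was present in 23.1% of the promoters of members that were higher in KO on average and in 13.1% of those not called. Of the 13 promoters of members that were lower, 15.4% held it. A GC box was present in 76.9% of those 13 and in 43.3% of the promoters of the higher members. A CCAAT box was found in 49.1% of member promoters against 33.8% of all, and a GC box in 44.4% against 32.7%. Of 2 further motifs searched on both strands, the core of the NRF1 motif was present in 2.73% against 0.782%, and the TATA box TATAAA in 6.83% against 12.4%. Member promoters held a median of 12 CpG against 6. The 32851 promoters belong to 27025 genes of any level, while the members had passed the level threshold. The sets compared therefore differ in more than the Zfp symbol, and promoters of genes matched in level were not compared. These matches describe letters in the window and not binding, and overlaps between motifs were not removed.

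Loss of TRIM28 raised more Zfp genes than it lowered on the mean over the 6 conditions. By limma's test with Benjamini-Hochberg adjustment over all 13082 genes, at an adjusted p under 0.05, 100 members were higher (34.2%) and 19 lower (6.51%). Over all genes tested the shares were 18.9% higher and 27.5% lower. The median log2 difference was 0.09 over the members and -0.01 over all genes. The shifts were small, and Zfp53 was the only member past 2-fold. Of the 292, 30 had a positive difference in all 6 conditions and 8 in none.

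**Figure D1:**
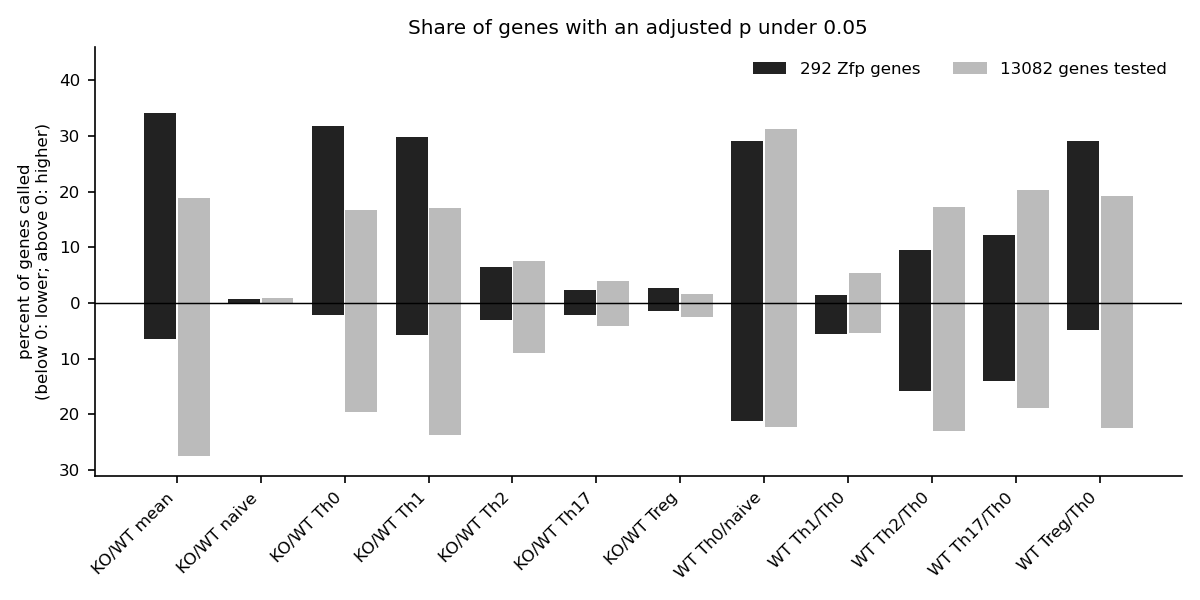
Percent of the 292 Zfp genes (black) and of all 13082 genes tested (grey) that were higher (bars up) or lower (bars down) in each comparison, at an adjusted p under 0.05. Zfp bars reach furthest up for KO against WT on the mean (34.2%), in Th0 (31.8%) and in Th1 (29.8%), and their downward bars there are shorter than the grey ones.

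The difference was largest in Th0 and Th1 cells. In Th0 cells 93 members were higher in KO (31.8%, against 16.8% of all genes) and 6 were lower (2.05%, against 19.6%), with a median of 0.23 over the members. In Th1 cells 87 were higher (29.8%, against 17% of all genes) and 17 lower (5.82%, against 23.7%), with a median of 0.20. Of the 93 and 87, 64 were shared, which is 68.8% and 73.6% of each, near the 70.4% and 69.5% over all genes. KO Th0 and KO Th1 samples of the same number deviated together from their group means, with a lowest correlation of 0.51, so these lists are not independent. By limma 0 members' KO effects differed between Th1 and Th0 (0.138% of all genes higher and 0.451% lower, 0.589% in all).

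Other conditions moved few Zfp genes. In naive cells 2 members were higher (0.685%, against 0.948% of all genes) and 0 lower (0.199% of all genes). In Th2 cells 19 were higher (6.51%, against 7.51%) and 9 lower (3.08%, against 8.88%). In Th17 cells 7 were higher (2.4%, against 4.03%) and 6 lower (2.05%, against 4.18%). In Treg cells 8 were higher (2.74%, against 1.71%) and 4 lower (1.37%, against 2.51%). The members' medians there lay between -0.05 and 0.06, and these shares are below those of all genes except for the members higher in Treg cells. The Th17 and Treg counts depended on the fit. With array weights 15 were higher and 22 lower in Th17 cells (8.67% and 12.8% of all genes) and 22 higher and 35 lower in Treg cells (10% and 11.6%). With only the groups compared in the fit, 1 was higher and 0 lower in Treg cells. Single samples left out gave 4 to 8 higher and 2 to 8 lower in Treg cells, and 3 to 5 of each in Th17 cells. Of the 3 myeloid markers tested, 1 was higher in KO Th2, 1 in KO Th17 and 2 in KO Treg cells. The mean of all 6 went from 5.81 to 6.03 in WT to 6.11 to 6.37 in KO Th2 samples, and from 5.25 to 5.42 in WT to 5.68 to 5.91 in KO Treg samples. Their part in the Zfp values was not tested.

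The differences between conditions were tested directly, on the signed KO minus WT difference. It was higher in Th0 than in naive cells in 35 members (12%, against 8.06% of all genes) and lower in 9 (3.08%, against 10.4%). It was lower in Treg than in Th0 cells in 63 members (21.6%, against 13.9%) and higher in 6 (2.05%, against 13.1%), where 27% of all genes differed in either direction. It was lower in Th17 than in Th0 cells in 47 (16.1%, against 8.22%) and higher in 4 (1.37%, against 7.41%), and lower in Th2 than in Th0 cells in 17 (5.82%, against 5.22%) and higher in 6 (2.05%, against 4.97%). Without KO Th0 sample 1 the members whose effect differed in either direction fell from 44 (18.5% of all genes differed) to 19 for Th0 against naive, from 51 (15.6%) to 29 for Th17 against Th0 and from 23 (10.2%) to 9 for Th2 against Th0. Without KO naive sample 1, WT naive sample 1 or WT Th0 sample 2 the first count, without WT Th17 sample 2 the second, and without KO Th2 sample 2, WT Th0 sample 2 or WT Th2 sample 2 the third also moved by over 1.5 times, all within the ranges 19 to 51, 29 to 56 and 9 to 32.

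**Figure D2:**
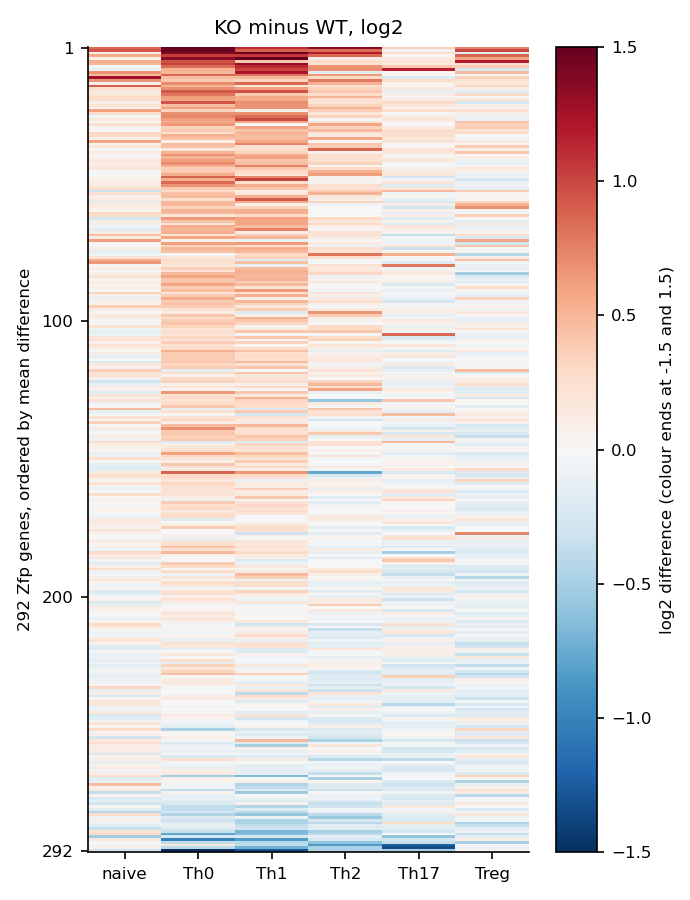
KO minus WT log2 difference of each of the 292 Zfp genes (rows, ordered by their mean) in the 6 conditions (columns), from blue (lower in KO) to red (higher in KO). Red fills most of the upper rows in the Th0 and Th1 columns, where 93 and 87 genes were called higher, and is sparse in the Th17 column, where 7 were.

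The 28 proliferation genes tested (cyclins, replication and mitosis genes) moved in the opposite direction, all 28 falling in KO Th0 (median -1.82) and all 28 in KO Th1 cells (median -1.39). Genes of naive and quiescent T cells rose in KO, 16 of 18 in Th0 and 13 of 18 in Th1 cells. In WT Treg against WT Th0 cells, with TRIM28 present, proliferation genes also fell (28 of 28, median -2.16), and 85 Zfp genes were higher (29.1%, against 19.2% of all genes) and 14 lower (4.79%, against 22.4%), where 41.6% of all genes changed. Relative to the median of all genes tested in the same sample, the median Zfp level lay between -0.62 and -0.56 in WT Th0, between -0.25 and -0.06 in KO Th0, between -0.30 and -0.15 in WT Treg and between -0.21 and -0.13 in KO Treg samples. The Th0 groups did not overlap, and the Treg groups did. The part of the proliferation genes in the Zfp result was not tested.

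**Figure D3:**
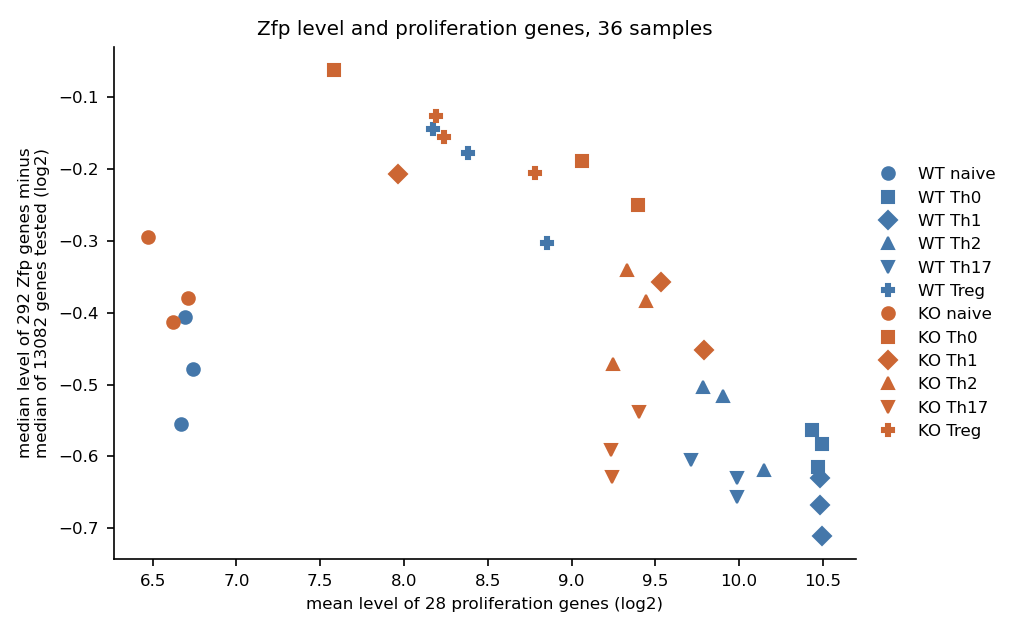
Median log2 level of the 292 Zfp genes minus that of all genes tested (vertical) against the mean log2 level of 28 proliferation genes (horizontal) in each of the 36 samples; WT blue, KO orange, symbols by condition. WT Th0 samples (horizontal 10.4 to 10.5) lie at -0.62 to -0.56 and WT Treg samples (8.17 to 8.85) at -0.30 to -0.15, KO Th17 samples (9.24 to 9.40) stay at -0.63 to -0.54, and the naive samples (6.47 to 6.74) lie apart.

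KO Th0 sample 1 and KO Th1 sample 1 had lower proliferation gene levels (7.58 and 7.96) than the other KO Th0 and Th1 samples (9.06 to 9.79). With both left out, 67 members were called higher and 5 lower in Th0 cells (13.1% and 15.8% of all genes), 53 higher and 8 lower in Th1 cells (11.7% and 17.9%), and 88 higher and 17 lower on the mean (16.4% and 25.7%). KO Th1 sample 1 alone lowered the Th1 counts to 53 and 8. The Th1 count of lower members also moved by over 1.5 times without WT Th1 sample 2.

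Zfp53 was the member with the largest mean effect. Its log2 levels were 7.68, 7.66 and 7.60 in WT Th0 and 9.43, 9.15 and 9.43 in KO Th0 samples. The KO samples lay above all WT samples, a 3.22-fold difference (1.69, SE 0.20, adjusted p = 4.9e-07). It was also higher in KO Th2 (1.35, adjusted p = 1.6e-05), Th1 (1.10, adjusted p = 7.7e-05), naive (0.87, adjusted p = 0.019) and Treg cells (0.73, adjusted p = 0.03). In Th17 cells, with 7.45, 7.99 and 7.85 in WT and 8.09, 7.70 and 8.59 in KO, the groups overlapped (0.36, adjusted p = 0.32). Its KO minus WT difference was lower in Th17 than in Th0 cells (-1.33, adjusted p = 0.002). The naive call was lost without KO naive sample 1 or 2 or WT naive sample 2 or 3 and with a term for sex, and the Treg call without KO Treg sample 3 or WT Treg sample 1 or 3.

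Its neighbours Zfp948 and Zfp983 followed in part. Zfp948 measured 6.84, 7.64 and 7.24 in WT Th0 and 8.67, 8.41 and 9.20 in KO Th0 samples, without overlap (1.51, SE 0.33, adjusted p = 0.00055). In Th17 cells WT samples at 8.42, 9.18 and 8.94 overlapped the KO samples at 8.63, 8.71 and 9.09 (-0.04, adjusted p = 0.98), and WT Th17 exceeded WT Th0 cells by 1.60 (adjusted p = 0.00021). Zfp983 differed most in Treg cells, at 7.61, 7.53 and 7.30 in WT and 8.59, 8.73 and 8.68 in KO (1.19, SE 0.23, adjusted p = 0.0011), again without overlap. Averaged over the 6 conditions Zfp948 was higher by 0.86 (SE 0.13) and Zfp983 by 0.59 (SE 0.09).

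Zfp445, which with Zfp57 keeps DNA methylation at imprinted regions through TRIM28, was higher in all 5 stimulated conditions. Its level was 9.14, 9.0 and 9.18 in WT Th0 and 9.93, 10.16 and 9.76 in KO Th0 samples (0.84, SE 0.11, adjusted p = 1.2e-06), and 9.03, 9.18 and 9.17 in WT Th1 and 10.14, 10.37 and 10.25 in KO Th1 samples (1.13, SE 0.11, adjusted p = 1.3e-08). No stimulated KO sample overlapped the WT samples of its condition. In naive cells, with 9.24, 9.15 and 8.89 in WT and 8.94, 9.34 and 8.95 in KO, the groups overlapped (-0.02, adjusted p = 0.99). Zfp57 itself (0.05, adjusted p = 0.51) and Zfp809, which silences a class of retroviral elements (0.06, adjusted p = 0.47), did not pass on the mean, nor did Zfp568, a KRAB protein that represses a placental form of Igf2 (-0.05, adjusted p = 0.36).

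**Figure D4:**
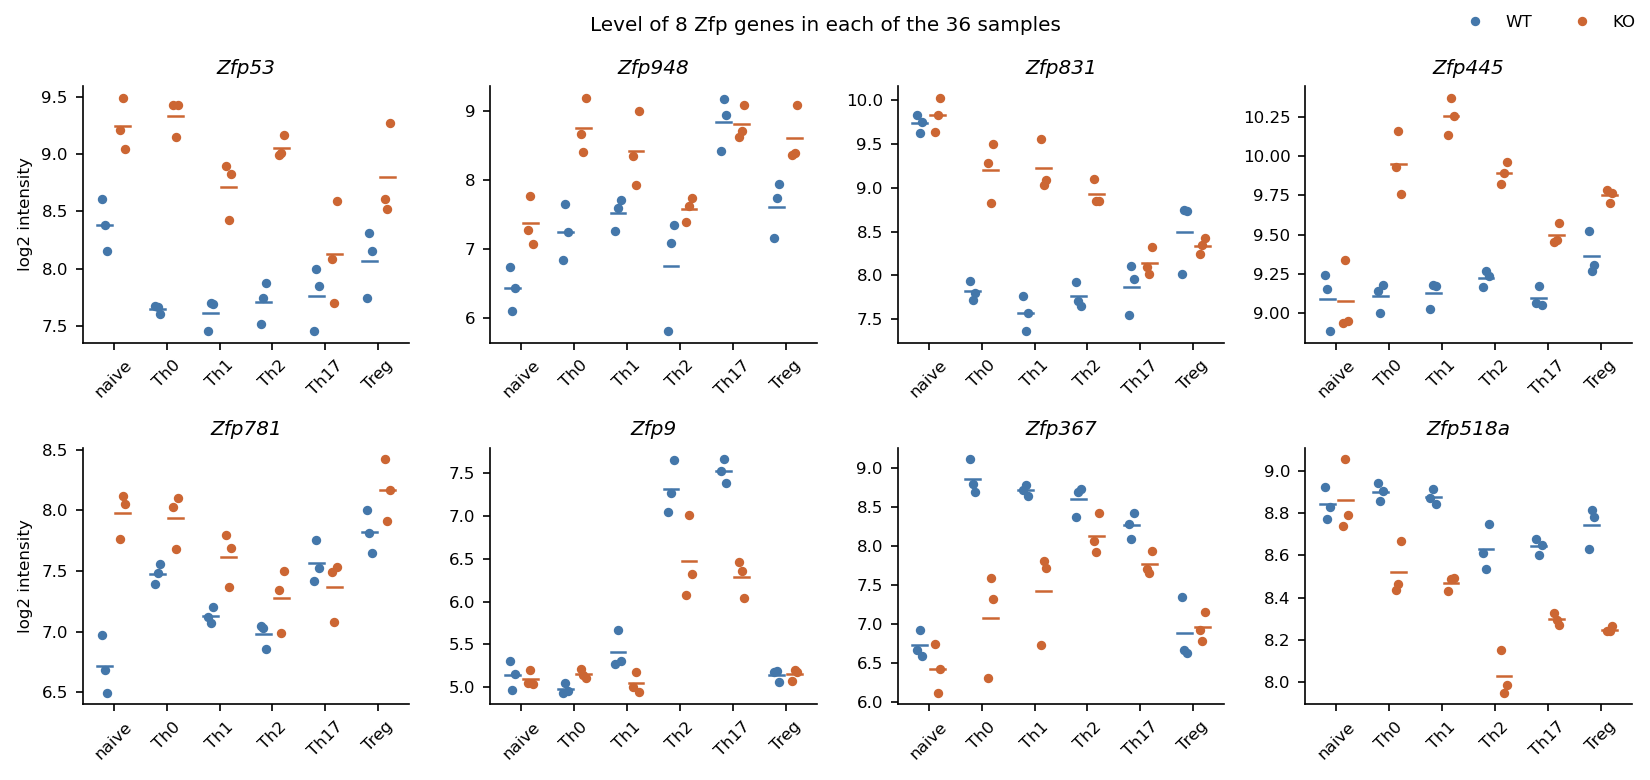
Log2 intensity of 8 Zfp genes in each of the 36 samples by condition (points; WT blue, KO orange; short lines are group means; each panel has its own scale). Zfp53, Zfp831 and Zfp445 sit higher in KO Th0, Th1 and Th2 samples, Zfp781 in KO naive samples, and Zfp367, Zfp9 and Zfp518a sit lower in the KO conditions named in the text.

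Zfp831 fell on stimulation in WT cells and was higher in KO than in WT cells in 3 stimulated conditions. WT levels went from 9.84, 9.62 and 9.75 in naive to 7.94, 7.72 and 7.81 in Th0 cells (-1.92, SE 0.18, adjusted p = 7.9e-10), the largest fall of any member. KO Th0 samples were at 9.29, 8.83 and 9.50, above the WT samples (1.39, SE 0.18, adjusted p = 1.8e-06), and KO exceeded WT also in Th1 (1.66, adjusted p = 1.2e-07) and Th2 cells (1.18, adjusted p = 2.8e-05). In Treg cells the groups overlapped (-0.16, adjusted p = 0.77), and the KO minus WT difference was lower there than in Th0 cells (-1.55, adjusted p = 0.00011).

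Further members called higher and past 2-fold in Th0 or Th1 cells included Zfp992, Zfp354c and Zfp600. Zfp992 rose by 1.03 in Th0, 1.06 in Th1, 0.86 in Th2 and 0.87 in Treg cells. The Th2 call for Zfp992 was lost without KO Th2 sample 1 or WT Th2 sample 2, and the Treg call without KO Treg sample 1 or 3 or WT Treg sample 2 or 3. Zfp354c rose by 1.02 in Th0 and by 1.31 in Th1 cells. Zfp600 rose by 1.23 in Th1 cells (SE 0.46, adjusted p = 0.034), a call lost without KO Th1 sample 1 or 3 or WT Th1 sample 1 or 2. Its mean level over all samples, 4.74, lay under the level threshold, which it passed in only 7 of the 36 samples. Zfp2 measured 4.80, 4.77 and 4.73 in WT Th0 and 6.15, 6.32 and 5.89 in KO Th0 samples, without overlap. Of the 11 samples that carried it past the level threshold 10 were KO samples, and its WT Th0 values lay under that threshold, so its levels are given as a description with no fold or test.

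The Zfp36 family fell on stimulation and was partly higher in KO. Zfp36 (tristetraprolin) fell in WT Th0 against naive cells by 1.29 and Zfp36l2 by 1.26. In Th1 cells Zfp36l2 was higher in KO by 1.02 (SE 0.13, adjusted p = 9.5e-07), Zfp36 by 1.0 with overlapping samples (SE 0.31, adjusted p = 0.0097) and Zfp36l1 by 0.51 (SE 0.14, adjusted p = 0.0055). In Th17 cells Zfp36 measured 9.19, 9.66 and 9.34 in WT and 10.83, 10.47 and 10.40 in KO, without overlap (1.17, SE 0.31, adjusted p = 0.014), a call lost without KO Th17 sample 1 or WT Th17 sample 1 or 3. In Treg cells Zfp36l1 was lower by 0.52 instead (-0.52, adjusted p = 0.033), a call lost when any of the 3 KO Treg samples or WT Treg sample 2 or 3 was left out.

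In naive cells Zfp781 passed besides Zfp53, at 6.97, 6.68 and 6.49 in WT and 7.76, 8.12 and 8.05 in KO samples. The groups did not overlap (1.26, SE 0.16, adjusted p = 3.6e-06), and the call held under each alternative run, the term for sex included. Zfp948 (0.95, adjusted p = 0.27) did not pass there.

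Fewer members fell. Zfp367 measured 9.11, 8.79 and 8.69 in WT Th0 and 6.31, 7.59 and 7.32 in KO Th0 samples, without overlap (-1.79, SE 0.26, adjusted p = 5.5e-06). In WT cells it had risen from naive to Th0 by 2.13 (adjusted p = 6.2e-08) and was lower in Treg than in Th0 cells by 1.98 (-1.98, adjusted p = 4.6e-07). Zfp365, known for a part in genome stability, fell in KO Th0 by 1.01 (-1.01, adjusted p = 4.8e-05) and in KO Th1 by 0.84 (-0.84, adjusted p = 0.00036), and Zfp382 by 0.78 and 0.65. Among the 3 KO Th0 samples, sample 1 had both the lowest proliferation genes and the lowest Zfp367 level.

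Zfp518a was lower in all 5 stimulated KO conditions, and no stimulated KO sample overlapped the WT samples of its condition. In Th2 cells it measured 8.61, 8.54 and 8.75 in WT and 8.15, 7.95 and 7.99 in KO (-0.60, SE 0.08, adjusted p = 3.3e-06). The difference was -0.38 in Th0, -0.41 in Th1, -0.35 in Th17 and -0.49 in Treg cells, and 0.02 in naive cells (adjusted p = 0.99).

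Zfp9 was tied to the lineage conditions. It measured 4.94, 5.05 and 4.96 in WT Th0, 7.05, 7.27 and 7.65 in WT Th2 and 7.53, 7.67 and 7.39 in WT Th17 samples. The WT Th0 values lay under the level threshold, which Zfp9 passed in 16 samples of 6 groups. These WT levels are therefore given as a description, with no fold or test against Th0. KO Th17 samples reached 6.46, 6.36 and 6.04, below the WT samples (-1.24, SE 0.16, adjusted p = 4.1e-06), and KO Th2 samples 6.07, 7.01 and 6.33, also below (-0.85, SE 0.16, adjusted p = 0.00042). Zfp750, a factor of epidermal differentiation, was lower in KO Th17 cells too (-1.33, adjusted p = 0.00074). Zfp618, a partner of UHRF2, was higher there (0.85, adjusted p = 3.3e-05), but it passed the level threshold only through the 3 KO Th17 samples, so it had to differ.

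In WT cells stimulation moved Zfp genes both ways, with 85 higher (29.1%, against 31.2% of all genes) and 62 lower (21.2%, against 22.3%) in Th0 than in naive cells. Zfp608, a regulator of Rag gene expression in thymocytes, rose most, from 5.51 to 5.67 over the naive samples to 7.41 to 8.57 over the Th0 samples (2.45, SE 0.28, adjusted p = 2.4e-08). Of the 85 members that rose, 17 (20%) were higher in KO than in WT Th1 cells, where 5.51% of all genes that rose were. Of the 62 that fell, 30 (48.4%) were higher in KO Th1 cells, where 41.3% of all genes that fell were. The 2 comparisons share no samples, although WT Th1 and WT Th0 samples of the same number deviated together.

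Between WT lineages, 4 members were higher (1.37%, against 5.43% of all genes) and 16 lower (5.48%, against 5.4%) in Th1 than in Th0 cells, where 10.8% of all genes changed. In Th2 cells 28 were higher (9.59%, against 17.2%) and 46 lower (15.8%, against 22.9%; 40.1% changed), and in Th17 cells 36 were higher (12.3%, against 20.3%) and 41 lower (14%, against 18.8%; 39.1% changed). Zfp385a, a p53 cofactor, rose in Th2 by 1.61 (adjusted p = 2.7e-05) and in Th17 cells by 2.07 (adjusted p = 4.6e-07). Zfp516, a factor of brown fat, rose in Th2 cells by 1.52 (adjusted p = 2.4e-08). In Treg cells Zfp827, which recruits the NuRD complex, went from 6.95, 6.76 and 6.30 in WT Th0 to 9.12, 8.67 and 8.58 (2.12, SE 0.16, adjusted p = 4.4e-11). KO Th0 samples held more Zfp827 than WT Th0 samples (0.87) and KO Th2 samples less than WT Th2 samples (-0.77), and the difference between these effects passed (-1.64, adjusted p = 2.8e-05). The lower and higher counts in Th2 and Th17 cells turned with the scaling, as those of all genes did. In Th2 cells cyclic loess gave 37 higher and 29 lower (2725 and 2404 of all genes). Quantile normalization gave 33 and 35 there (2436 and 2657), and median centring 22 and 61 (1938 and 3514). Median centring gave 30 and 67 in Th17 cells (2211 and 3345 of all genes) and 2 and 20 in Th1 cells (589 and 992). The Th1 count moved by over 1.5 times without WT Th0 sample 1 or 3 or WT Th1 sample 2 or 3, falling to 8 in all without WT Th1 sample 2, and the Th2 count without WT Th2 sample 3 (49 in all).

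By the RefSeq order of genes on GRCm38.p6, 178 members lay in 28 clusters of at least 3 members (starts within 1 Mb of the next) on 13 chromosomes and 114 lay outside. On the mean over conditions 64 of the 178 were higher (36%) and 8 lower (4.49%), with a median of 0.10. Of the 114 outside, 36 were higher (31.6%) and 11 lower (9.65%), with a median of 0.07. Over all genes tested 18.9% were higher and 27.5% lower. The counts differed among clusters, and that difference was not tested. The largest, 16 genes on chromosome 17 with Zfp53, had 7 higher and 0 lower (median 0.18), and the second largest, 14 genes on chromosome 7, had 2 higher and 1 lower (median 0.00). All members were higher in 5 smaller clusters, with 4 genes on chromosome 10 (Zfp433, Zfp781, Zfp873, Zfp938), 4 on chromosome 9 (Zfp317, Zfp560, Zfp266, Zfp846) and 3 each on chromosomes 16, 17 and 4. Chromosome 7, with 76 members, had 20 higher and 3 lower, and chromosome 15, with 10, had 0 higher and 3 lower. The lower count on chromosome 15 and the higher count of the second largest cluster are near the shares of all genes.

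**Figure D5:**
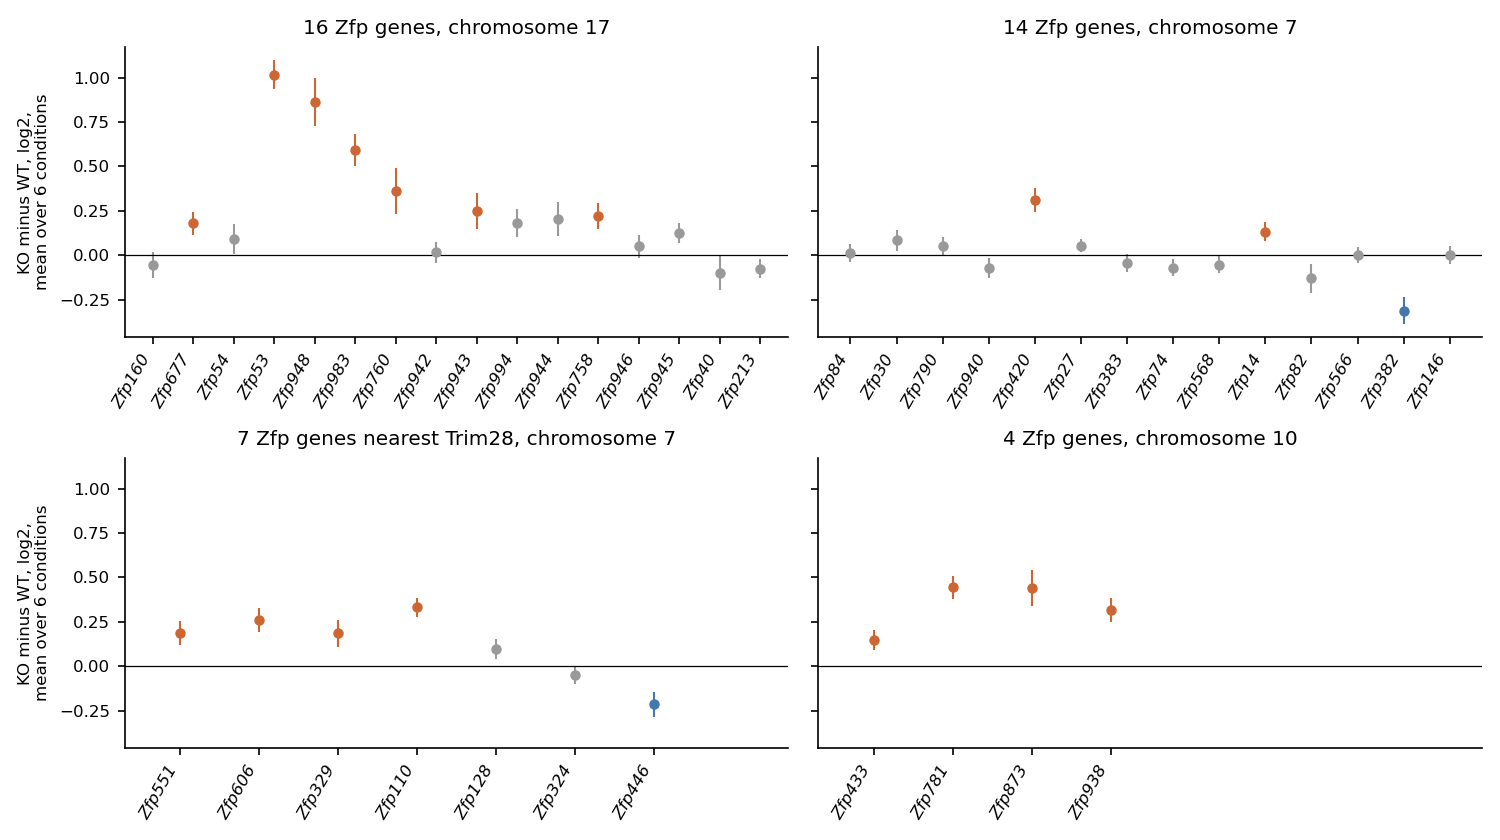
KO minus WT log2 difference on the mean over 6 conditions (points; bars are 1 standard error) for Zfp genes in chromosomal order in 4 clusters; orange called higher, blue called lower, grey not called. On chromosome 17 the rise peaks at Zfp53 (1.02) and declines over Zfp948 (0.86), Zfp983 (0.59) and Zfp760 (0.36), and all 4 genes on chromosome 10 are higher.

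Within the chromosome 17 cluster 4 of the 7 higher members lay in 1 run. From Zfp53 onward the next tested genes were 9330136K24Rik (0.36), Zfp948 (0.86), Zfp983 (0.59), Gm10509 (0.41) and Zfp760 (0.36), all called higher on the mean, while Zfp54 on the other side of Zfp53 was not (0.09, adjusted p = 0.41). The other 3 lay elsewhere in the cluster, Zfp677 (0.18, adjusted p = 0.023) beyond Zfp54, and Zfp943 (0.25, adjusted p = 0.047) and Zfp758 (0.22, adjusted p = 0.016) further along. On chromosome 10 the 7 consecutive tested genes from Zfp433 to Zfp938, including Gm3055, Gm8290 and AU041133, were all called higher, by 0.15 to 0.44. Over all genes there were 42 runs of at least 4 consecutive tested genes called higher, of which 9 held a Zfp member, and the longest, of 8 genes, was the Gimap cluster, which held none. Beside Zfp445 both neighbours were higher, Tcaim by 0.32 and Zkscan7 by 0.33. Trim28 itself lies by 7 members on chromosome 7, of which 4 were higher and 1 was lower (median 0.19), and the 9 other tested genes within 2 Mb had a median of -0.08. Copies in a cluster can be alike in sequence, and whether their probe sets detect each other's transcripts was not tested.

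Related gene families were read from lists in the same way. Over all genes tested 18.9% were higher and 27.5% lower on the mean. On the mean, 9 of 18 Zkscan and Zscan genes, which add a SCAN domain to the fingers, were higher and 0 lower (median 0.11), and 12 of 33 Zbtb genes, with a BTB domain, were higher and 2 lower (median 0.08). Of 18 Zc3h genes, CCCH-type RNA-binding proteins, 5 were higher and 6 lower (median 0.02). Among 21 tested TRIM28 partners 6 were higher, led by Setdb1 (1.24, SE 0.06) and Trim24 (1.04, SE 0.04), and 6 lower, led by Uhrf1 (-1.05, SE 0.17). The lower counts of the Zc3h genes and of the partners are near the share of all genes.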

How the data were processed

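RNA of 36 samples of sorted mouse CD4 T cells was hybridized to Affymetrix arrays, per the labels. The deposited values are log2 intensities, which the authors obtained with RMA from the oligo package in R 3.1.0, per the submitters' processing notes; the annotation and genome build are not given in the sources used here. They were used unchanged. Probe sets with 1 symbol in the platform table were taken (23521 of 41345; 1814 had several symbols and 16010 none), and genes above 5.26 in at least 3 samples were tested. With 3 arrays a group, their number limits the precision.

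A mean for each of the 12 groups was fitted to all 36 samples with limma 3.58.1 in R 4.3.3 (24 residual degrees of freedom, 27.9 with the prior), with tables read by data.table (version 1.17.8), and 17 comparisons were adjusted separately by Benjamini-Hochberg. Changes are log2 differences with their standard error (SE). The labels do not say that a sample number marks an animal, so no block was fitted. Deviations of same-numbered KO and WT samples correlated at -0.29 to 0.40, with both signs in every condition but Th2 (0.04 to 0.40). Same-numbered samples of WT Th1 and Th2 with WT Th0, and of KO Th1 and Treg with KO Th0, deviated together (lowest correlation 0.11). A replicate block changed no count there by over 1.5 times. All 292 members were matched to RefSeq genes by Entrez ID; 269 had 1 probe set. Named genes were those a rule picked: for KO against WT in a condition the 6 highest and 4 lowest called members whose samples did not overlap, for the mean the 12 highest and 8 lowest with 1 sign throughout, fewer in other comparisons, with members called in at least 5 conditions, leading members of the 3 largest clusters and a fixed set; others are named as cluster neighbours, as runs or for their levels. Members, lists and rules were chosen with earlier results of these data known. Protein classes (KRAB or not) were not used here, and figures were drawn with matplotlib 3.10.9. The fit was tested on simulated data. Alternatives covered the filter, scaling, probe sets, prior, array weights, samples in the fit, a replicate block, a sex term and samples left out.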

Additional observations from a re-analysis of the deposited data

Results flagged for a closer look

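The KO minus WT difference of the following members was not the same in 2 conditions, by the test of that difference itself (limma, adjusted p under 0.05 over all genes tested). The signed values are those of the 3 highest and 3 lowest members, first condition minus second. For Th0 minus naive cells they were 1.29 for Zfp831, 1.26 for Zfp2 and 0.92 for Zfp869, and -1.49 for Zfp367, -1.15 for Zfp365 and -1.08 for Zfp382. Zfp831 and Zfp2 stood at 0.09 each in naive and at 1.39 and 1.35 in Th0 cells. Zfp367, Zfp365 and Zfp382 stood at -0.30, 0.14 and 0.30 in naive and at -1.79, -1.01 and -0.78 in Th0 cells, where they were lower in KO. Zfp2 passed the level threshold mostly through KO samples, so its values here and below are a description. The WT Th0 values of Zfp9 lay under that threshold, so its differences against Th0 below are a description too.

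For Th2 minus Th0 cells the values were 1.33 for Zfp367, 0.83 for Zfp677 and 0.75 for Zfp365, and -1.64 for Zfp827, -1.23 for Zfp2 and -1.02 for Zfp9. Zfp367 and Zfp365 stood at -0.46 and -0.26 in Th2 and at -1.79 and -1.01 in Th0 cells. Zfp677 was higher in KO Th2 (0.80) and stood at -0.03 in Th0 cells, and Zfp9 was lower in KO Th2 (-0.85) and stood at 0.17 in Th0 cells. For Th17 minus Th0 cells they were 1.29 for Zfp367, 0.79 for Zfp382 and 0.74 for Zfp365, which stood at -0.50, 0.01 and -0.27 in Th17 cells. They were -1.55 for Zfp948, -1.41 for Zfp9, which was lower in KO Th17 cells (-1.24), and -1.33 for Zfp53.

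For Treg minus Th0 cells they were 1.87 for Zfp367, 1.12 for Zfp365 and 0.85 for Zfp239, which stood at 0.08, 0.11 and 0.33 in Treg and at -1.79, -1.01 and -0.52 in Th0 cells. They were -1.55 for Zfp831, -1.20 for Zfp963 and -1.09 for Zfp169. Zfp963 and Zfp169 stood at 0.94 and 0.93 in Th0 and at -0.26 and -0.16 in Treg cells. Zfp239 passed the level threshold in only 8 samples of 4 groups. Its mean level over all samples, 4.88, lay under that threshold, so its difference is a description. The lowest group mean of Zfp365, 4.80 in WT Treg cells, also lay under the level threshold, so its Treg difference is a description. All 4 comparisons share the Th0 samples. Without KO Th0 sample 1, the Zfp367 differences for Th17 and Th2, the Zfp365 differences for Th17 and Th2, the Zfp382 difference for Th17, the Zfp677 difference for Th2 and the Zfp869 difference were no longer called. The Zfp367 difference for Th2 was also lost without KO Th2 sample 3 or WT Th0 sample 1, that of Zfp869 without WT naive sample 1, and those of Zfp365 and Zfp382 without several other single samples of the groups compared. The Zfp948 difference was lost without KO Th0 sample 3, KO Th17 sample 1, WT Th0 sample 1 or WT Th17 sample 2, and the Zfp239 difference without WT Th0 sample 1 or WT Treg sample 3.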

How the results depend on the processing

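Of the 156 values of named genes, none turned its direction under 48 settings where it was called before or after. Sign changes of values not called in either run were not counted, and not every setting applied to every value. Of these values 43 lost their call under at least 1 setting and 2 gained one; the cause was not tested. Without a library in turn, the counts of higher members ranged from 90 to 106 on the mean (lower 17 to 22), 67 to 87 in Th0 (5 to 8), 53 to 92 in Th1 (8 to 17), 15 to 20 in Th2 (5 to 12), 3 to 5 in Th17 (3 to 5), 4 to 8 in Treg (2 to 8) and 1 to 5 in naive cells (0 to 1). Members changed ranged from 8 to 19 for WT Th1, 49 to 70 for Th2, 63 to 68 for Th17 and 80 to 102 for Treg against Th0, and in WT Th0 against naive cells 62 to 85 were higher and 50 to 61 lower. Differences of the KO effect ranged from 19 to 51 (Th0 against naive), 9 to 32 (Th2 against Th0), 29 to 56 (Th17), 49 to 77 (Treg) and 0 to 0 (Th1).

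With KO Th0 and KO Th1 samples 1 both left out, 53 members were higher and 8 lower in Th1 (11.7% and 17.9% of all genes). In Treg 7 were lower (2.81% of all genes), and 22 (Th0 against naive) and 14 (Th2 against Th0) differed. With array weights 30 were higher and 23 lower in Th2 (11% and 14.8% of all genes) and 15 and 22 in Th17 (8.67% and 12.8%). These weights gave 22 and 35 in Treg (10% and 11.6%) and 10 lower in Th0 (21.4%). Under them 58, 129, 127 and 161 changed in WT Th1, Th2, Th17 and Treg, and 64 and 92 effects differed for Th2 and Th17 against Th0. These last counts are not set against all genes here. With only the groups compared in the fit, 1 was higher in naive, 4 in Th17 and 1 in Treg, 3 were lower in Th2 and 0 in Treg, 34 changed in WT Th1, and 25 (Th0 against naive) and 7 (Th2 against Th0) effects differed.

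Cyclic loess gave 4 higher in naive (142 of all genes), 11 lower in Th0 (3091) and, in Th1, 71 higher and 26 lower (1882 and 3821). For Th0 against naive it gave 22 members with a higher and 13 with a lower KO minus WT difference (879 and 1823 of all genes). Quantile normalization gave 10 lower in Th0 (2846 of all genes). Median centring gave 5 higher and 7 lower in Th17, where 454 of all genes were higher and 611 lower. The stricter filter gave 4 higher in Th17, 8 lower in Th1 and 11 lower on the mean, where fewer members were tested. The mean of probe sets gave 2 lower in Treg, and the sex term 1 higher in naive. With a replicate block 104 members were higher on the mean and 97 in Th0, and no count moved by over 1.5 times. Signals near background on the array limit what can be said of the 64 members under the table's median in some samples.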

Other observations

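Probe sets annotated to several symbols, of which at least 1 was a Zfp gene, were left out of the 292. Of 44 such probe sets 39 passed the level rule. In KO against WT, 7 were higher and 2 lower in Th0, 12 higher and 3 lower in Th1, and 7 higher and 2 lower on the mean, with medians of 0.21, 0.29 and 0.05. Of all genes tested, 16.8% were higher and 19.6% lower in Th0, 17% and 23.7% in Th1, and 18.9% and 27.5% on the mean. The higher counts in Th0 and on the mean are thus near the share of all genes.

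The 12 group means of a member spanned a median of 0.91 log2 units. The span was above 2 for 13 members, widest for Zfp385a (3.27), Zfp608 (2.87) and Zfp827 (2.59), and smallest for Zfp526 (0.23). Of the 78 Zfp genes left out by the level rule, 69 lay above the table's median in no sample. The third-highest values of those above it in exactly 3 samples (Zfp352, Zfp618, Zfp850, Zfp976, Zfp979) lay between 5.26 and 5.36, and of those above it in 2 (Zfp385c, Zfp462, Zfp704, Zfp93) between 5.03 and 5.25.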
